A study of Homo sapiens with 6 samples.

Results

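Lysosomal genes were followed in SCC25, an established line of squamous carcinoma cells from the human tongue. The genes were the rows of the deposited count table that carried one of 37 named symbols or a symbol of the vacuolar proton pump, ATP6V0 or ATP6V1 with a subunit letter and at most 1 digit. This gave 57 of 26524 genes, 37 of them named hydrolases, cofactors, membrane proteins and transcription factors, and 20 of them pump subunits. Sequencing of polyadenylated RNA had been done on 3 control libraries and 3 libraries with a short hairpin against LIS1, the product of PAFAH1B1, here called shLIS1. The labels describe the first 3 as control in genotype and treatment and the others as a knockdown. Nothing is stated about a hairpin in the control cells, or about 1 or several hairpins behind the 3 shLIS1 libraries. The design text speaks of a knockout, although a hairpin lowers a transcript and leaves the gene in place. All 6 carry batch 1, and nothing says that they came from separate cultures, so p-values measure the spread between these libraries, which may be technical. The design allows 1 comparison, shLIS1 against control, which asks how transcripts differ in cells with less LIS1, a protein that regulates the motor dynein.

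Lysosomes are acidic compartments in which proteins, glycans and lipids that reach the cell by uptake or autophagy are broken down. Their soluble enzymes are made in the endoplasmic reticulum, mostly tagged with mannose 6-phosphate in the Golgi apparatus, and depend on an acid pH that the proton pump maintains. Heavily glycosylated membrane proteins line the compartment and carry products out of it. The transcription factors TFEB and TFE3 bind an E-box with the core CACGTG, often in a longer palindrome known as the CLEAR element, near the start of many lysosomal genes. Dynein, which LIS1 regulates, carries lysosomes toward the cell centre, while kinesins carry them outward.

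Because both factors bind this element, its letters were looked up in the RefSeq promoters (build GRCh38.p14, 250 bases before to 50 after the start), which held an entry for 43 of the 57 genes. The letters TCACGTG, read on either strand, were in 10 of the 43 promoters (23.3%), against 3.82% of 27305 promoters in all and 5.74% of the 11166 promoters of tested genes. The palindrome TCACGTGA, which contains TCACGTG, and its form with a G before and a C after it were in 6 and 3 of the 43, against 1.83% and 0.752% of the promoters of tested genes. The shorter CACGTG, contained in all of these, was in 11 of the 43 (25.6%) and in 9.91% of the promoters of tested genes. CD63 was the gene with CACGTG alone. Promoters of SGSH, MANBA, PSAP, HEXA, NAGLU, LAMP2, CTSB, ASAH1, ATP6V0E1, ATP6V1A, ATP6V1B2, ATP6V1C1, ATP6V1E2 and ATP6V1H were not used here. A match describes letters in a window and does not show that a factor binds there.

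The stretches around these letters are shown 5′ to 3′ for the 10 genes, because the calls of these genes are set beside those of the others at the end of the results. Capitals mark TCACGTG or its complement CACGTGA, extended to TCACGTGA, and by the G before and the C after it, where those letters are present. GAA holds the longest form in both of its sites, MCOLN1 in 1 of 2, and ATP6V1G1 in its single site. LAMP1 holds 5 sites in the 200 bases shown, and a further CACGTG begins at the last base before the start. Each stretch ends at the last base before the start except that of NEU1, which ends 57 bases before it. 
GAA: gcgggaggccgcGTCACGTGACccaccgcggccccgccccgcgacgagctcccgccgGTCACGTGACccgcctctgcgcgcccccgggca
MCOLN1: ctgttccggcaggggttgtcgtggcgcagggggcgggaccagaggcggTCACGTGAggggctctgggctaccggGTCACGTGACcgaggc
ATP6V1G1: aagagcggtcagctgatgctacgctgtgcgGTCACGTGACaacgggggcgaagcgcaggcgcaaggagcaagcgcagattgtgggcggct
CTSA: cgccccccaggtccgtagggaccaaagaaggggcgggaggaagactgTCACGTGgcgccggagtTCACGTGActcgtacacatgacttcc
CTSD: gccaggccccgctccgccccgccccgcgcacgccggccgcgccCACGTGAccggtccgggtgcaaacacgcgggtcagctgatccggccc
LAMP1: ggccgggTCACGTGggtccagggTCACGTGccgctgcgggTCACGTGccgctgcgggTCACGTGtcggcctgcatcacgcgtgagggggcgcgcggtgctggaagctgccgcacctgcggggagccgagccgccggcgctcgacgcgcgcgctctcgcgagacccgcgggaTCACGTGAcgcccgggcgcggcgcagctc
NEU1: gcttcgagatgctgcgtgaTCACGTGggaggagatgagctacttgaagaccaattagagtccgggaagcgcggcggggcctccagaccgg
ATP6V0B: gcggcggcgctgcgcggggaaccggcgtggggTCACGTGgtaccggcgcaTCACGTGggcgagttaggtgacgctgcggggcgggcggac
ATP6V0D1: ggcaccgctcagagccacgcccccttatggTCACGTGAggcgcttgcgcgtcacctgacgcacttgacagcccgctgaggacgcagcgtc
ATP6V0E2: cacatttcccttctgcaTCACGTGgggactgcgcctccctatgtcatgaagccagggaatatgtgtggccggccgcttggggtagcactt
In GRCh38.p14 the stretches lie at chr17:80101491-80101580 (plus strand) for GAA, chr19:7522534-7522623 (plus strand) for MCOLN1, chr9:114587679-114587768 (plus strand) for ATP6V1G1, chr20:45891245-45891334 (plus strand) for CTSA and chr11:1763928-1764017 (minus strand) for CTSD. Those of the remaining genes lie at chr13:113297039-113297238 (plus strand) for LAMP1, chr6:31862878-31862967 (minus strand) for NEU1, chr1:43974870-43974959 (plus strand) for ATP6V0B, chr16:67481158-67481247 (minus strand) for ATP6V0D1 and chr7:149872878-149872967 (plus strand) for ATP6V0E2.

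Total counts were 15661916 to 20549728 in the control libraries and 17674881 to 22790599 in the shLIS1 libraries. Levels are given in CPM, counts scaled to a TMM-adjusted library size of 1000000, and values of single libraries stand in the order of replicates 1 to 3. PAFAH1B1 was at 157, 165 and 154 CPM in the controls and 111, 109 and 113 CPM in shLIS1. The groups did not overlap, and the mean fell from 159 ± 5.56 to 111 ± 2.17 CPM (SD, n = 3 each), to 69.8% of control (log2 fold change -0.52, SE 0.05, edgeR adjusted p = 6.5e-08). The second principal component, with 14.5% of the variance, set control library 1 apart from the others, so counts are also given without it. Mitochondrially encoded genes took 5.46% to 6.15% of counts in the controls and 7.45% to 7.68% in shLIS1, and the part of this in the results was not tested. Squamous markers were abundant, with KRT5 at a mean of 5535 CPM in the controls, and of 10 such markers 4 rose and 4 fell. Of 6 macrophage and monocyte markers in the table, 3 were tested and CD14 fell (log2 fold change -0.77), with a summed level of 16.5 to 18.9 CPM in the controls and 11.7 to 12.9 CPM in shLIS1. CD68 and LYZ, which define these cells, were near 0, at means of at most 0.0931 and 0.0379 CPM. Summed fibroblast markers were at 17.1 to 21.9 and 13.3 to 15.9 CPM, with 3 of 4 tested lower and DCN, PDGFRA and THY1 near 0. Summed endothelial markers were at 12.9 to 17.2 and 7.33 to 8.94 CPM, with 1 of 2 tested lower (CDH5) and PECAM1 near 0. Summed Schwann cell and neuron markers were at 3.53 to 5.07 and 4.81 to 5.60 CPM, and the 1 tested did not pass. The part of these markers in the results was not tested. Fold changes across all genes followed the composition of the transcript, so calls were set against those of a second fit, called the offset fit, in which length and GC content of the transcript were smoothed out per library. PAFAH1B1 had a log2 fold change of -0.81 in the offset fit (edgeR adjusted p = 2.3e-12), so the size of its fall depends on this treatment.

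Lysosomal genes were more often lower than higher in shLIS1. Of the 57 genes, 55 passed the filter on low counts, and 26 fell (47.3%), 6 rose (10.9%) and 23 did not pass at an adjusted p below 0.05 (edgeR). Over all 14964 genes tested, 48.4% were called, 23.5% higher and 24.9% lower. The median log2 fold change was -0.15 for the 55 genes and -0.01 for all genes tested. No lysosomal gene that passed changed 2-fold or more, and those that fell kept 58.6% to 90.8% of their control level. The groups of 3 did not overlap for 29 genes that were lower and 6 that were higher, of 55, and for 56.1% of all genes tested. Without control library 1, 29 fell and 6 rose, and without control library 3, 19 fell and 5 rose. Their medians in these fits were -0.17 and -0.15, against -0.0049 and -0.0067 over all genes tested. Leaving out a library can change the calls of all genes, and the shares called over all genes in these fits are not given here.

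In the offset fit 26 of the 55 genes fell as well, but 1 rose, against 24% lower and 17.7% higher among the 14491 genes tested in it. Of the 26 genes that fell without the offset, 19 fell in both fits and 7 did not pass with it. Of the 6 that rose, ATP6V1E2 rose in both, 4 did not pass with the offset, and CTSC was called lower. A further 6 genes fell only in the offset fit. The summed level of the 57 genes was 8376 to 8605 CPM in the controls and 6921 to 7056 CPM in shLIS1. CTSB alone held 28.1% to 29.1% of their counts in the controls and 21.0% to 21.7% in shLIS1. Without CTSB the sum was 6022 to 6140 CPM in the controls and 5449 to 5522 CPM in shLIS1. In bulk RNA, fewer cells of a kind and less RNA per cell cannot be told apart.

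**Figure D1:**
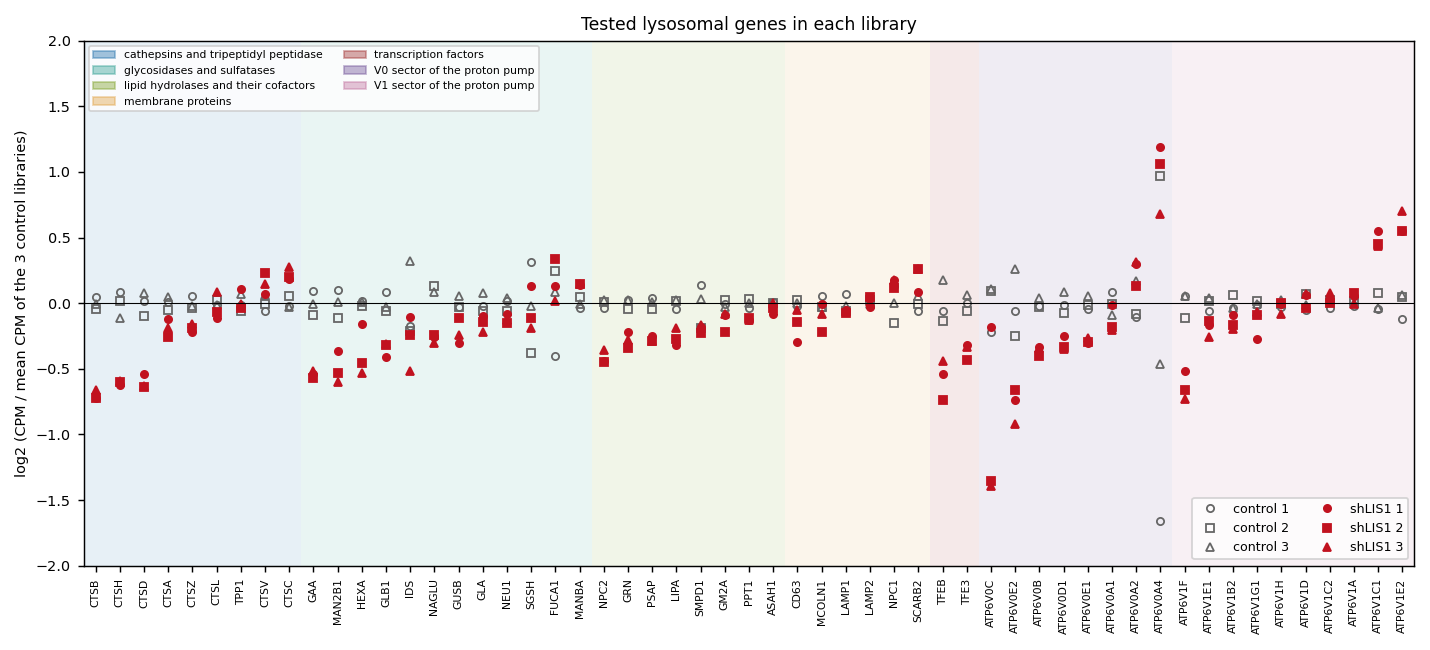
Log2 ratio of the CPM in each library to the mean of the 3 control libraries, for the 55 tested lysosomal genes grouped by role. Open grey symbols are control libraries and red symbols shLIS1 libraries. In CTSB, CTSH and CTSD the shLIS1 libraries lie together below all controls, and in ATP6V0C shLIS1 library 1 stands apart from the other two.

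Among the proteases, the cathepsins and tripeptidyl peptidase 1, 5 of 9 genes fell, 1 rose and 3 did not pass. Over all genes tested, 24.9% fell and 23.5% rose. In the offset fit 4 of the 9 proteases fell and 0 rose. CTSB (ENSG00000164733, chromosome 8, 11842524 to 11869533, minus strand, build hg38), a cysteine protease that also trims peptides from the carboxyl end, was at 2508, 2354 and 2419 CPM in the controls and 1468, 1472 and 1534 CPM in shLIS1. All shLIS1 libraries lay far below all controls, and the mean went from 2427 ± 77.3 to 1491 ± 37.1 CPM (SD, n = 3 each) (log2 fold change -0.70, SE 0.04, edgeR adjusted p = 1.7e-10). The aspartic protease CTSD (ENSG00000117984, chromosome 11, 1752752 to 1764573, minus strand) was at 264, 244 and 275 CPM in the controls and 179.8, 168 and 168 CPM in shLIS1. It was lower in every shLIS1 library and fell (log2 fold change -0.60, SE 0.06, edgeR adjusted p = 3.8e-08), with -0.25 (adjusted p = 1.8e-04) in the offset fit. CTSH, which removes residues from the amino end, was at 61.8, 59.1 and 53.9 CPM in the controls and 37.9, 38.5 and 38.7 CPM in shLIS1, again without overlap (log2 fold change -0.60, SE 0.07, edgeR adjusted p = 5.1e-07). CTSB, CTSH and CTSD fell under every alternative setting run. CTSD overlaps another gene of the table on each strand, so its counts are uncertain. CTSB changed little with the offset, at -0.66.

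CTSA, a carboxypeptidase that also protects GLB1 and NEU1 in a complex, was at 146, 139.7 and 149 CPM in the controls and 134, 121 and 127 CPM in shLIS1. CTSZ, a cysteine carboxypeptidase, was at 105, 98.2 and 99.7 CPM in the controls and 86.8, 88.7 and 90.4 CPM in shLIS1. Both lay lower in every shLIS1 library and passed (log2 fold changes -0.19 and -0.19, edgeR adjusted p = 0.0064 and 0.0069), but neither passed in the offset fit, where they were 0.06 and 0.11. The CTSA call was also lost without control library 3 (-0.16) or shLIS1 library 2 (-0.15). CTSC, the dipeptidyl peptidase that activates serine proteases of immune granules, went the other way. It was at 451, 475 and 448 CPM in the controls and 521, 526 and 554 CPM in shLIS1, higher in every shLIS1 library (log2 fold change 0.22, SE 0.05, edgeR adjusted p = 0.0011). In the offset fit CTSC was called lower, at -0.19 (adjusted p = 0.00198), so its direction rests on how transcript length and GC content are treated. Its longest transcript had 38.2% GC. The endopeptidase CTSL (-0.03), its close relative CTSV (0.15) and TPP1 (0.02), which cuts tripeptides from the amino end, did not pass in either fit.

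Enzymes that cut sugars and sulfate from glycans fell or did not pass. Of 12 glycosidases and sulfatases, 6 fell, 0 rose and 6 did not pass, against 24.9% lower and 23.5% higher over all genes tested. Their median log2 fold change was -0.25, and -0.06 in the offset fit, where 5 fell and 0 rose. Medians over all genes were -0.01 and -0.03. GAA, which breaks down glycogen, was at 87.0, 76.7 and 81.4 CPM in the controls and 56.2, 55.1 and 57.1 CPM in shLIS1 (log2 fold change -0.54, SE 0.06, edgeR adjusted p = 4.9e-07). MAN2B1, which cuts alpha-linked mannose, was at 68.3, 59.0 and 64.1 CPM in the controls and 49.6, 44.1 and 42.0 CPM in shLIS1 (log2 fold change -0.49, SE 0.07, edgeR adjusted p = 1.5e-05). GLB1, the beta-galactosidase, was at 45.5, 41.2 and 42.2 CPM in the controls and 32.4, 34.4 and 34.6 CPM in shLIS1 (log2 fold change -0.35, SE 0.07, edgeR adjusted p = 5.0e-04). In these 3 genes the shLIS1 libraries were all lower than the controls, and each fell under every alternative setting run, with -0.29, -0.27 and -0.28 in the offset fit.

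HEXA, the alpha subunit of beta-hexosaminidase, fell as well (log2 fold change -0.37, -0.38 with the offset). GUSB, the beta-glucuronidase, was at 35.0, 34.9 and 37.1 CPM in the controls and 28.8, 32.9 and 30.2 CPM in shLIS1, lower in every shLIS1 library. NAGLU, which acts on heparan sulfate, was at 15.7, 20.4 and 19.8 CPM in the controls and 15.6, 15.7 and 15.1 CPM in shLIS1. NAGLU was close to the shLIS1 level in control library 1, and its groups overlapped. Both genes passed (-0.22 and -0.27) without passing in the offset fit (-0.03 and 0.03). The NAGLU call was also lost on leaving out any library but control library 1 (-0.28 to -0.20), and the GUSB call without control library 3 or shLIS1 library 1 or 3 (-0.21 to -0.18). GENCODE release 29 names 10 pseudogenes after GUSB, and HEXA overlaps HEXA-AS1 on the opposite strand, so the counts of both are uncertain. Among those that did not pass, GLA, the alpha-galactosidase, had the highest level per length of the class. It was at 57.5, 55.8 and 61.5 CPM in the controls and 54.5, 52.8 and 50.1 CPM in shLIS1, lower in every shLIS1 library but with an adjusted p of 0.0648 (edgeR), and passed with upper quartile scaling and without control library 1 (-0.17). The sialidase NEU1 (-0.12), which passed with upper quartile scaling, SGSH (-0.04), which removes sulfate from heparan sulfate, FUCA1 (0.14), which cuts fucose, and MANBA (0.14), the beta-mannosidase, did not pass in either fit. IDS, the iduronate sulfatase, with the lowest level of the class, passed in the offset fit only, at -0.56.

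**Figure D2:**
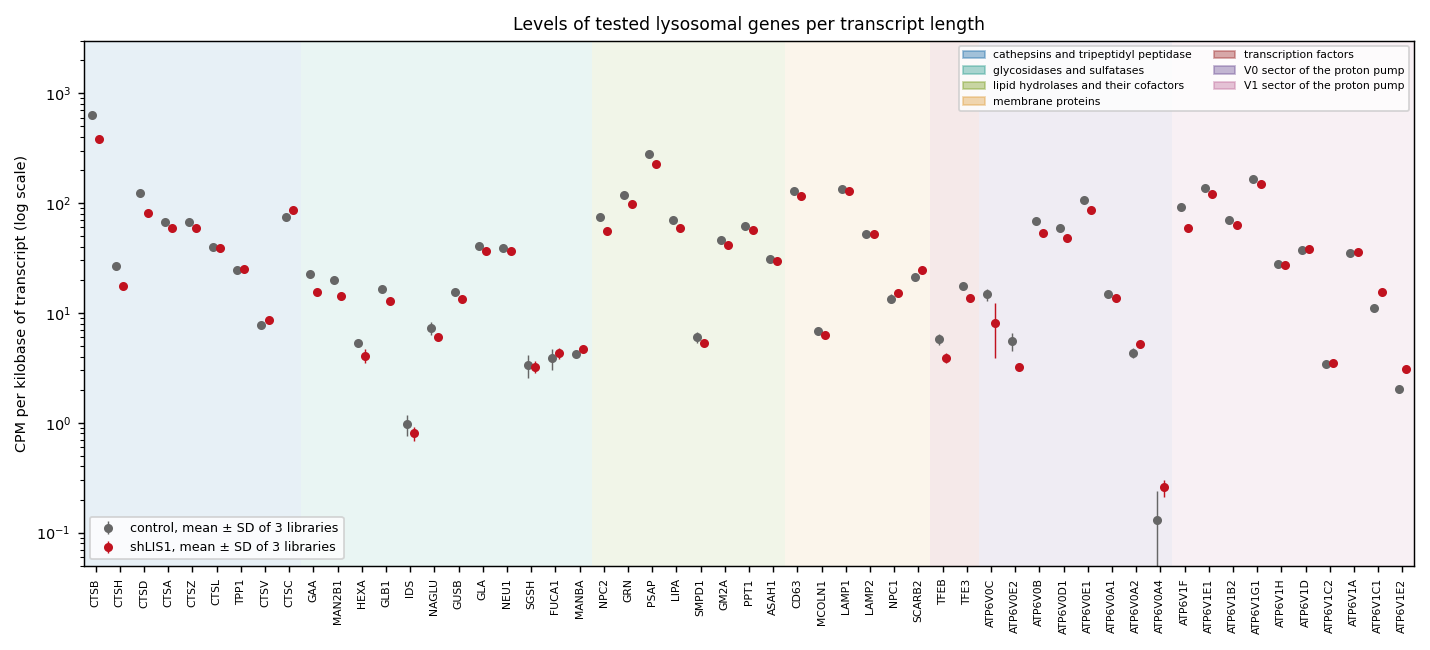
Level in CPM per kilobase of the longest transcript on a log scale, mean ± SD of 3 libraries, for the 55 tested lysosomal genes grouped by role. CTSB and PSAP had the highest levels, ATP6V0A4 and IDS the lowest.

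Of 8 genes grouped as lipid-degrading enzymes and cofactors, with NPC2 and GRN among them, 4 fell, 0 rose and 4 did not pass. All 8 log2 fold changes were negative, from -0.41 to -0.04. Over all genes tested, 24.9% fell and 23.5% rose. In the offset fit 6 of the 8 fell and 0 rose. NPC2, the soluble protein that hands cholesterol to the membrane protein NPC1, was at 104, 107 and 109 CPM in the controls and 78.9, 78.3 and 83.6 CPM in shLIS1 (log2 fold change -0.41, SE 0.05, edgeR adjusted p = 2.7e-06). PSAP, the precursor of the saposins that present sphingolipids to their enzymes, was at 818, 772 and 800.1 CPM in the controls and 668, 651 and 652 CPM in shLIS1 (log2 fold change -0.28, SE 0.05, edgeR adjusted p = 5.9e-05). LIPA, the acid lipase that frees cholesterol from its esters, was at 190.1, 198 and 199 CPM in the controls and 157, 162 and 172 CPM in shLIS1 (log2 fold change -0.26, SE 0.05, edgeR adjusted p = 4.0e-04). None of these 3 overlapped between groups, and the 3 falls held under every alternative setting run. LIPA overlaps interferon-induced IFIT genes on the opposite strand, of which IFIT3 rose (log2 fold change 0.73), and with no strand setting given for the counting its value is uncertain.

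GRN, whose product progranulin is cut into granulins in the lysosome, was at 283, 269 and 283 CPM in the controls and 239, 220.0 and 229 CPM in shLIS1. It passed without the offset (log2 fold change -0.28, SE 0.05, edgeR adjusted p = 2.2e-04) and was 0.02 (adjusted p = 0.708) with it. PPT1, which removes palmitate from proteins (-0.12), GM2A, the activator of ganglioside breakdown (-0.13), and the ceramidase ASAH1 (-0.04) did not pass. PPT1 (-0.15) and GM2A (-0.14) passed without control library 1, both also passed with upper quartile scaling, and PPT1 in limma-voom. In the offset fit these 3 fell, with -0.25, -0.18 and -0.20. The sphingomyelinase SMPD1 (-0.19) did not pass in either fit and passed without control library 2 (-0.27).

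Of 6 membrane proteins, 2 rose, 1 fell and 3 did not pass, with a median log2 fold change of -0.03. Over all genes tested, 23.5% rose and 24.9% fell. In the offset fit 0 of the 6 rose and 1 fell. LAMP1, the most abundant per length with 134 ± 6.36 CPM per kilobase in the controls (SD, n = 3), was at 381, 347 and 357 CPM in the controls and 349, 344 and 346 CPM in shLIS1. The groups overlapped, and LAMP1 did not pass (-0.06, adjusted p = 0.343 in edgeR). LAMP2, which also guides chaperone-mediated autophagy, was at 207, 214 and 209 CPM in the controls and 206, 217 and 211 CPM in shLIS1, with overlapping groups (0.01). LAMP2 was called lower in the offset fit, at -0.32 (adjusted p = 9.8e-06). The tetraspanin CD63 was at 158, 163 and 160.4 CPM in the controls and 131, 145 and 154 CPM in shLIS1, lower in every shLIS1 library, and passed (log2 fold change -0.16, SE 0.06, edgeR adjusted p = 0.0261). The CD63 call was lost in the offset fit (0.03), in DESeq2, without a filter, and without control library 2 or 3 or shLIS1 library 1 or 2 (-0.17 to -0.10).

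SCARB2, the receptor that carries glucocerebrosidase to the lysosome, was at 98.2, 102 and 106 CPM in the controls and 109, 122 and 122 CPM in shLIS1. It rose (log2 fold change 0.20, SE 0.06, edgeR adjusted p = 0.0063), was higher in every shLIS1 library, and was -0.03 (adjusted p = 0.643) in the offset fit. NPC1, which exports cholesterol from the lysosome, was at 76.2, 62.8 and 69.6 CPM in the controls and 78.6, 75.5 and 78.7 CPM in shLIS1, with control library 1 inside the shLIS1 range. NPC1 passed narrowly (log2 fold change 0.16, SE 0.07, edgeR adjusted p = 0.0499), and its call was lost in 10 of 16 alternatives, with leaving out any library but control library 1 among them (0.10 to 0.18). The calcium channel MCOLN1 did not pass in either fit (-0.10 and 0.22).

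Both transcription factors among the 57 genes, TFEB and TFE3, fell. MITF, from the nutrient sensing list used below, did not pass (log2 fold change 0.04, edgeR adjusted p = 0.886). It was at means of 2.84 and 2.88 CPM, and did not pass in the offset fit (-0.23) either. TFEC, from the same list, did not pass the filter on low counts. TFEB (ENSG00000112561, chromosome 6, 41683978 to 41736259, minus strand) was at 14.4, 13.7 and 17.0 CPM in the controls and 10.4, 8.99 and 11.1 CPM in shLIS1 (log2 fold change -0.56, SE 0.11, edgeR adjusted p = 3.3e-04). TFE3 (ENSG00000068323, chromosome X, 49028726 to 49043410, minus strand) was at 60.4, 58.0 and 62.9 CPM in the controls and 48.5, 44.7 and 48.0 CPM in shLIS1 (log2 fold change -0.36, SE 0.07, edgeR adjusted p = 1.3e-04). The groups did not overlap for either gene, and both fell under every alternative setting run. In the offset fit TFEB was -0.36 (adjusted p = 0.0091) and TFE3 -0.16 (adjusted p = 0.0304). These are transcript levels, and the activity of both proteins is set mainly by phosphorylation and entry into the nucleus, which were not measured here.

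**Figure D3:**
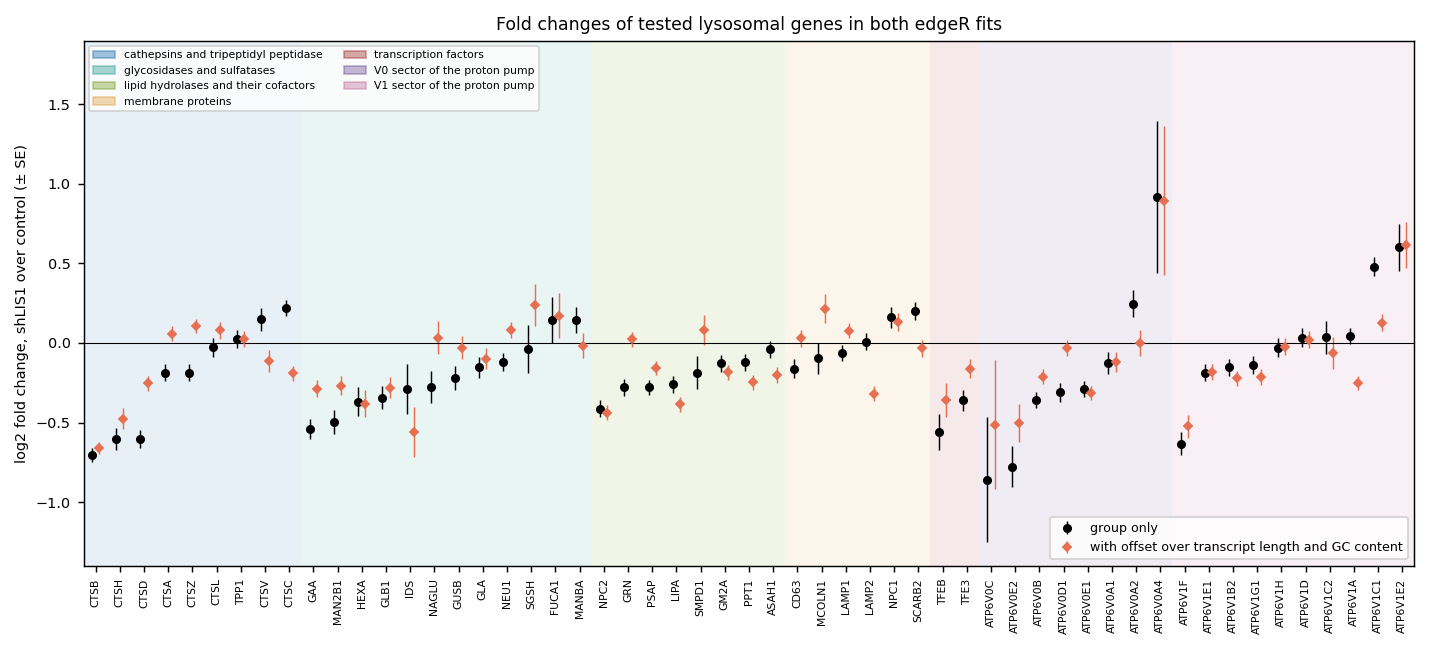
Log2 fold change of shLIS1 over control ± SE for the 55 tested lysosomal genes grouped by role, from the edgeR fit on group alone (circles) and from the offset fit (diamonds). CTSC, LAMP2 and ATP6V1A lie lower with the offset, and CTSA, CTSZ and GRN lie higher.

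The proton pump has a cytosolic V1 sector that hydrolyses ATP and a membrane V0 sector that passes protons. Of its 20 genes, 18 were tested, and 8 fell, 3 rose and 7 did not pass, with a median log2 fold change of -0.13. Over all genes tested, 24.9% fell and 23.5% rose. In the offset fit 8 of the 18 fell and 1 rose. ATP6V1B1 and ATP6V1G2, isoforms of the B and G subunits, had at most 2 and 5 counts in any library and were not tested. Without control library 3, 5 pump genes fell, in a fit with fewer libraries for all genes. In V0, 4 of 8 genes fell and 1 rose, and 3 fell and 0 rose in the offset fit. ATP6V0E2, an isoform of the small subunit e, was at 14.4, 12.6 and 18.1 CPM in the controls and 9.01, 9.50 and 7.93 CPM in shLIS1 (log2 fold change -0.78, SE 0.13, edgeR adjusted p = 4.5e-05). ATP6V0B, a subunit of the proteolipid ring, was at 114, 114 and 119 CPM in the controls and 91.9, 87.4 and 91.2 CPM in shLIS1 (log2 fold change -0.36, SE 0.05, edgeR adjusted p = 9.7e-06). ATP6V0E1, the more abundant subunit e gene, was at 147, 150.1 and 157 CPM in the controls and 123, 124 and 126 CPM in shLIS1 (log2 fold change -0.29, SE 0.05, edgeR adjusted p = 8.6e-05). In these 3 genes no shLIS1 library reached the control range, and each fell under every alternative setting run.

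ATP6V0D1, which joins the ring to the central stalk, was at 101, 97.0 and 108 CPM in the controls and 85.8, 81.3 and 80.1 CPM in shLIS1. It fell (log2 fold change -0.31, SE 0.06, edgeR adjusted p = 1.6e-04), and was -0.03 (adjusted p = 0.657) in the offset fit. ATP6V0C, the main subunit of the ring, was at 14.9, 18.5 and 18.7 CPM in the controls and 15.3, 6.79 and 6.59 CPM in shLIS1. Here shLIS1 library 1 stood with the controls and the other 2 shLIS1 libraries far below, and the gene did not pass (log2 fold change -0.86, SE 0.39, edgeR adjusted p = 0.150). Without shLIS1 library 1 its log2 fold change was -1.38 (adjusted p = 1.7e-07), and it also passed in limma-voom (adjusted p = 0.0014) and in edgeR without robust estimation (adjusted p = 0.0055). GENCODE release 29 names 4 pseudogenes after it, and it overlaps another gene of the table on the same strand, so its counts are uncertain. Among the large a subunits, ATP6V0A1 did not pass (-0.13) except with upper quartile scaling or without shLIS1 library 1 (-0.19). ATP6V0A2 was at 26.5, 26.8 and 32.0 CPM in the controls and 34.9, 31.1 and 35.3 CPM in shLIS1, with control library 3 inside the shLIS1 range, and rose (log2 fold change 0.25, SE 0.08, edgeR adjusted p = 0.0206). It was near 0 in the offset fit (-0.00059) and did not pass with upper quartile scaling or without control library 2 or shLIS1 library 1 or 3 (0.21 to 0.22). ATP6V0A4 was below 1 CPM in every library and did not pass (0.92), but did without control library 2 (1.84).

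In V1, 10 genes were tested, of which 4 were called lower and 2 higher, against 24.9% and 23.5% over all genes tested. In the offset fit 5 of the 10 were called lower and 1 higher. ATP6V1F, which sits in the rotor of V1, was at 68.2, 60.8 and 68.4 CPM in the controls and 45.9, 41.5 and 39.8 CPM in shLIS1 and had the smallest adjusted p of the pump (log2 fold change -0.63, SE 0.07, edgeR adjusted p = 4.6e-07). ATP6V1E1, a subunit of the outer stalks, was at 184, 194 and 198 CPM in the controls and 171, 174 and 160.4 CPM in shLIS1 (log2 fold change -0.19, SE 0.05, edgeR adjusted p = 0.0064). ATP6V1B2, the B subunit of the ATP-binding ring, was at 195, 209 and 195 CPM in the controls and 188, 178 and 174 CPM in shLIS1 (log2 fold change -0.15, SE 0.05, edgeR adjusted p = 0.0236). The shLIS1 libraries were below all controls in these 3, and all 3 fell in the offset fit. The ATP6V1E1 call was lost without control library 3 (-0.16), and that of ATP6V1B2 in 6 alternatives, among them DESeq2 and leaving out control library 2 or 3 or shLIS1 library 2 or 3 (-0.16 to -0.11). ATP6V1G1, with 166 ± 1.61 CPM per kilobase the highest level per length of the pump, was at 178, 181 and 178 CPM in the controls and 148, 168 and 171 CPM in shLIS1. It passed narrowly (log2 fold change -0.14, SE 0.06, edgeR adjusted p = 0.0484) and lost its call in 10 of 16 alternatives, among them leaving out control library 2 or 3 or shLIS1 library 1 or 2 (-0.17 to -0.08). GENCODE release 29 names 5 pseudogenes after ATP6V1G1.

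ATP6V1C1, the widely expressed C subunit that controls assembly of V1 onto V0, was at 60.3, 65.6 and 60.6 CPM in the controls and 91.2, 84.8 and 84.0 CPM in shLIS1. It was higher in every shLIS1 library and rose (log2 fold change 0.48, SE 0.06, edgeR adjusted p = 1.7e-06), and was 0.13 (adjusted p = 0.0587) in the offset fit. ATP6V1E2 (ENSG00000250565, chromosome 2, 46490750 to 46542577, minus strand), an E subunit isoform described mainly in testis, was at 3.66, 4.13 and 4.17 CPM in the controls and 5.85, 5.83 and 6.50 CPM in shLIS1. It was higher in every shLIS1 library (log2 fold change 0.60, SE 0.15, edgeR adjusted p = 0.0019), and of the 6 rises it was the one that held under every alternative setting run. ATP6V1E2 overlaps RHOQ on the opposite strand, and RHOQ, at means of 19.4 and 25.4 CPM, rose as well (log2 fold change 0.39, edgeR adjusted p = 8.5e-04), so with no strand setting given for the counting the ATP6V1E2 counts are uncertain. The catalytic A subunit ATP6V1A did not pass (0.04) and was -0.25 (adjusted p = 1.0e-04) with the offset. ATP6V1D (0.03), ATP6V1H (-0.03) and ATP6V1C2 (0.04) did not pass in either fit.

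Shares between isoforms of the pump, were taken from CPM per kilobase of transcript. ATP6V1C1 made up 76.3% ± 0.614 of the 2 C subunit genes in the controls and 81.4% ± 0.867 in shLIS1 (SD, n = 3 each). ATP6V1E1 made up 98.6% ± 0.0517 of the 2 E subunit genes in the controls and 97.5% ± 0.263 in shLIS1. ATP6V0E1 made up 95.1% ± 0.730 of the 2 subunit e genes in the controls and 96.4% ± 0.353 in shLIS1. Among the 4 a subunit genes, with TCIRG1 included, ATP6V0A2 held 8.11% ± 1.04 in the controls and 10.6% ± 0.583 in shLIS1. TCIRG1 held 64.0% ± 1.58 and 61.0% ± 0.731, and ATP6V0A1 27.6% ± 1.48 and 27.9% ± 0.959. ATP6V1B2 made up 99.99% ± 0.022 of the 2 B subunit genes in the controls and 99.96% ± 0.037 in shLIS1. The groups overlapped for the shares of ATP6V0A1 and ATP6V1B2 and for none of the others. By level, 56.1% of all genes tested did not overlap between groups either. A permutation test of 3 against 3 cannot give an exact two-sided p below 0.10, so none was made. These shares take no account of the trend with length and GC content.

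**Figure D4:**
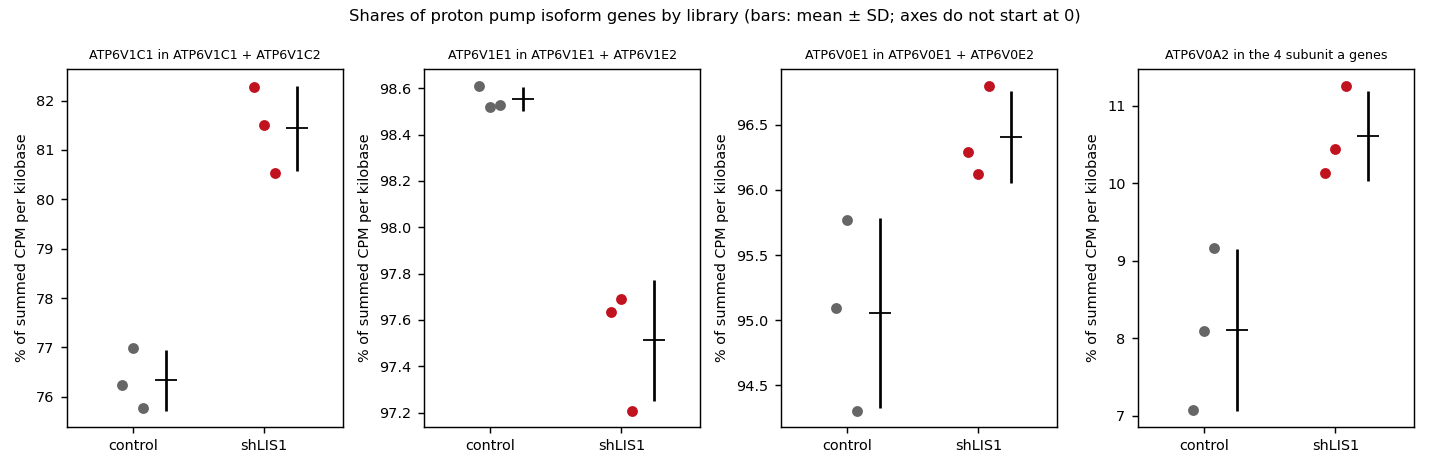
Share of an isoform gene in the summed CPM per kilobase of its subunit genes, by library, with the mean ± SD of 3 libraries beside the points; the axes do not start at 0. The shares of ATP6V1C1, ATP6V0E1 and ATP6V0A2 were higher and that of ATP6V1E1 lower in every shLIS1 library.

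Fold changes were lower at higher GC content, among lysosomal genes and over all genes. Spearman's rho between log2 fold change and GC content was -0.584 across the 55 lysosomal genes and -0.501 across 14491 genes. With transcript length it was 0.364 and 0.292. Genes are not independent replicates, and these values describe 1 pair of groups. Among lysosomal genes with at least 55% GC, 12 of 18 fell and 0 rose, with a median log2 fold change of -0.28. Of all tested genes in that range, 48.0% fell and 4.3% rose, with a median of -0.25. Below 45% GC, 4 of 14 lysosomal genes fell and 4 rose, with a median of 0.03, while 9.0% of all such genes fell and 45.5% rose, with a median of 0.23. In the offset fit 6 of the 18 GC-rich and 9 of the 14 GC-poor lysosomal genes fell, with medians of -0.0028 and -0.21. Over all genes tested in that fit 24% fell, with a median of -0.03. The shares of all genes called in it by GC range are not given here, so these counts are not read as particular to lysosomal genes. The part of transcript composition in single calls was not tested beyond this fit.

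**Figure D5:**
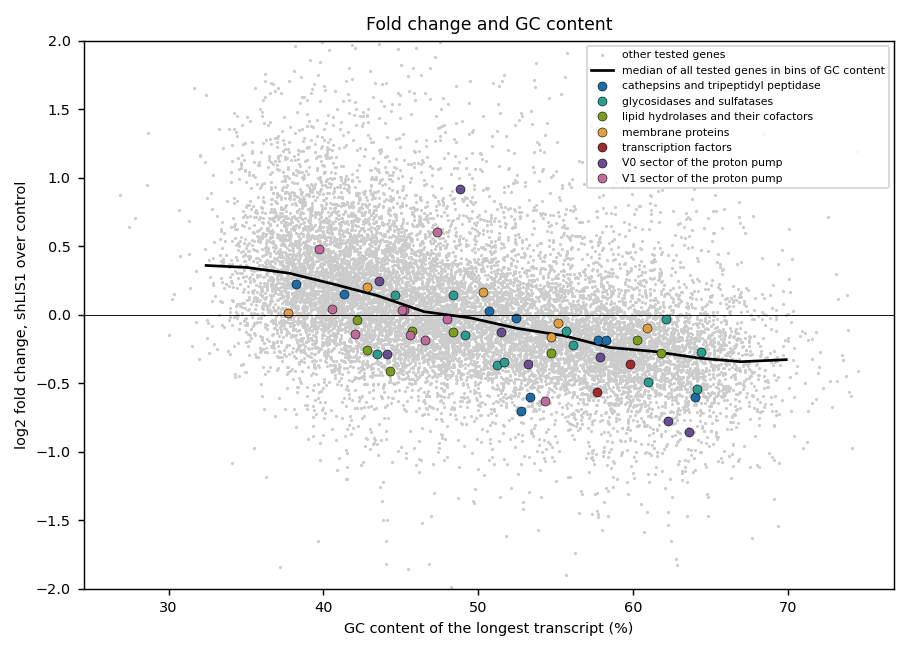
Log2 fold change of shLIS1 over control against GC content of the longest transcript. Grey points are the other tested genes (those beyond the axis are not drawn), the black line the median of all tested genes in bins of GC content, and coloured points the lysosomal genes by role. Fold changes fall with GC content in both.

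Of the 10 genes whose promoter holds TCACGTG, printed above, 7 fell, 0 rose and 3 did not pass, with a median log2 fold change of -0.25. The 7 were GAA, CTSA, CTSD, ATP6V1G1, ATP6V0B, ATP6V0D1 and ATP6V0E2, and the others were LAMP1, MCOLN1 and NEU1. Where the promoter entry lacks these letters, 13 of 31 genes fell and 4 rose, with a median of -0.16. The transcripts of the first set had a median GC content of 57.8% and those of the second 50.3%. Over all 14964 genes tested, 24.9% fell and 23.5% rose. Of all tested genes with at least 55% GC, 48.0% fell and 4.3% rose, with a median of -0.25. The share called among all tested genes whose promoter holds TCACGTG is not given here. In the offset fit 5 of 10 and 13 of 31 fell, with medians of -0.12 and -0.11, against 24% of all genes tested in it. LAMP1, with the most sites, did not pass. Of the 3 genes with the longest form, GAA, which holds it in both sites, fell, and MCOLN1 did not pass. The third, ATP6V1G1, passed narrowly (edgeR adjusted p = 0.0484) and lost its call in 10 of 16 alternatives.

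Further lysosomal genes came from lists written with earlier results of these data known. Their counts stand against 23.5% higher and 24.9% lower over all 14964 genes tested. Of 35 other lysosomal hydrolases tested, 10 fell (28.6%), 2 rose (5.71%) and 23 did not pass, with a median log2 fold change of -0.11. DNASE2, which degrades DNA in lysosomes (-0.75), and the carboxypeptidase SCPEP1 (-0.45) had the smallest p of the falls. The protease CTSK rose (1.75), at means of 0.387 and 1.33 CPM. Of 33 other membrane proteins and transporters, 9 rose (27.3%) and 8 fell (24.2%), both near the shares over all genes, with a median of 0.11. Among them were LAPTM5 (-0.73), TTYH3 (-0.57) and the metal transporter SLC11A2 (0.24). SLC11A2 did not pass in the offset fit (0.03, edgeR adjusted p = 0.710). TMEM106B rose (0.35) and was called lower in the offset fit (-0.25). In that fit DNASE2 was -0.55, SCPEP1 -0.44, CTSK 1.75, LAPTM5 -0.67 and TTYH3 -0.32.

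Among 13 accessory and assembly proteins of the pump, 5 rose (38.5%) and 3 fell (23.1%), against 23.5% and 24.9% of all genes tested. In the offset fit 3 of the 13 rose and 3 fell, against 17.7% and 24% of all genes tested in it. Their median log2 fold change was 0.09 without the offset and -0.12 with it. DMXL2 (1.07) and DMXL1 (0.78), of the complex that helps V1 assemble onto V0, rose, with 0.66 and 0.30 in the offset fit. ROGDI (-0.74), of the same complex, and the assembly factor CCDC115 (-0.54) fell, with -0.36 and -0.41 in the offset fit. For mannose 6-phosphate sorting, 8 of 18 genes fell (44.4%) and 4 rose (22.2%). GNPTAB, which starts the tag, rose (0.38), and the adaptor subunits AP1S1 (-0.40) and AP1B1 (-0.29) fell. GNPTAB (0.13, edgeR adjusted p = 0.0799) and AP1B1 (-0.12, edgeR adjusted p = 0.0603) did not pass in the offset fit, where AP1S1 fell (-0.17). AP1G1, of the same adaptor, rose (0.21) and did not pass in the offset fit (-0.08, edgeR adjusted p = 0.162). Among 24 genes of nutrient sensing at the lysosome, 7 rose (29.2%) and 6 fell (25%), both near the shares over all genes. The folliculin partners FNIP1 (0.62) and FNIP2 (0.64) came first of the rises, and MLST8 (-0.58) and LAMTOR5 (-0.41) of the falls. In the offset fit these 4 kept their calls, at 0.22, 0.36, -0.21 and -0.36. Among 29 genes that position and fuse lysosomes, 10 fell (34.5%) and 6 rose (20.7%). The kinesin heavy chain KIF5B (0.72) and the motor scaffold SPAG9 (0.55) rose, while PLEKHM2 (-0.36), which links lysosomes to kinesin, and the SNARE protein VAMP8 (-0.35) fell. They kept their calls in the offset fit with smaller changes, of 0.34, 0.22, -0.13 and -0.25.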

How the data were processed

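RNA of 6 SCC25 libraries was measured, 3 control and 3 shLIS1, grouped by the labels. Values in the deposited table are raw, unnormalized gene counts, made from polyadenylated RNA with strand-marked cDNA, per the labels' protocols. The build is hg38, per the submitters' processing notes, while no aligner, counter, annotation or strand setting is named (not given in the sources used here). Of the 57 genes, 31 overlap another gene of the table and 9 have pseudogenes named after them in GENCODE release 29, so their counts are uncertain.

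The main test was that of edgeR 4.0.16 (R 4.3.3): filterByExpr (minimum count 10, minimum total 15), TMM scaling, and a robust quasi-likelihood fit with group as its single term. Benjamini-Hochberg adjustment covered all 14964 genes tested, with a threshold of 0.05. A standard error is the size of the log2 fold change divided by the root of F. Simulated counts with known changes served to check the scripts. For the offset, a surface was fitted to how each library departs from the mean of all, over log2 length and GC content of the longest GENCODE transcript, coding transcripts preferred (mgcv 1.9.3, basis 6 per axis; 96.8% of tested genes had values). Levels per kilobase use that length. A count of 0 allows up to 3 counts, 0.130 to 0.192 CPM, for counting error only.

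Other settings tried were DESeq2 1.42.0, limma-voom (limma 3.58.1), upper quartile and RLE scaling, a filter of 1 CPM in 3 libraries, no filter, a fit without robust estimation, a block for the replicate number, the offset, block and offset together, and each library left out in turn. The genes, lists, motifs and alternatives were chosen with earlier results of these data known. Values for every library are given in each role for up to 3 rises and 3 falls with the smallest p, the highest level per length, and genes whose call the offset ended or turned. ATP6V0C, LAMP2 and LIPA were added after their values were seen, and so were MITF and TFEC, without values of single libraries. In other lists up to 2 rises and 2 falls with the smallest p are named. The value of 1 gene that this rule would name is not reported here. Libraries differed by more than counting noise, with a chi-square per gene of 2.64 to 10.9 within groups and 40.3 to 54.1 across.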

Additional observations from a re-analysis of the deposited data

How the results depend on the processing

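The offset over transcript length and GC content changed most. With it, alone or with the replicate block, 1 lysosomal gene was higher, 1 pump gene was higher and 0 of the other 37 genes were higher, while 26, 8 and 18 were lower, the counts without it. Among named genes called in at least 1 of the 2 fits, the offset turned the sign of the log2 fold change for ATP6V0A2 from 0.25 to -0.00059, ATP6V1A from 0.041 to -0.25, CD63 from -0.16 to 0.029, CTSA from -0.19 to 0.059 (0.058 with the block), CTSC from 0.22 to -0.19, CTSZ from -0.19 to 0.11, GRN from -0.28 to 0.025, LAMP2 from 0.0092 to -0.32, NAGLU from -0.27 to 0.034 (0.050 with the block), SCARB2 from 0.20 to -0.033, AP1G1 from 0.21 to -0.081 (-0.082 with the block) and TMEM106B from 0.35 to -0.25. With the block as well these signs stayed turned except that of ATP6V0A2 (0.00012). The sign also turned for CTSL, CTSV, MANBA, NEU1, SGSH, SMPD1, LAMP1, MCOLN1, ATP6V1C2 and MITF, which passed in neither fit. In the other 14 alternatives no lysosomal call was reversed. Of 769 gene values in them, 708 kept their side of the threshold, 46 lost a call and 15 gained one. On leaving out 1 library, 19 to 29 lysosomal genes were lower and 4 to 6 higher, and 5 to 9 pump genes were lower, with 5 without control library 3. The shares of all genes called in those fits are not given here. Under every alternative 16 of the 26 falls and 1 of the 6 rises kept their call. Scaling moved the median of all genes by at most 0.04 (upper quartile, -0.05). Same-numbered libraries showed no shared deviation (correlations of -0.0381, 0.0315 and -0.0373), against -0.0318 to 0.0586 between libraries of different number. With 3 libraries per group this cannot settle whether the numbers pair anything. With the replicate block 26 lysosomal genes were lower and 6 higher, and PAFAH1B1 was at -0.52. Genes below about 10 CPM, such as IDS, FUCA1 and SGSH, had standard errors of 0.15 to 0.16, so small changes were not detectable in them.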
